A study of Homo sapiens with 6 samples.

Results

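The genes described here encode the enzymes that make asparagine, move amino groups between amino acids and keto acids, and pass sulfur from homocysteine to cysteine. They are ASNS, BCAT1, BCAT2, GPT2, GOT1, GOT2, GLUD1, CBS and CTH, and 8 of these 9 are among the 11363 genes of the deposited table. CTH, the cystathionine gamma-lyase that completes transsulfuration, is not listed there and was not analysed here. The genes were chosen by name from earlier results on the same comparison of knockout with parental cells, which included the high ASNS level. Their differences between the groups are therefore given as a description and not as a test, and counts of them support nothing further.

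RNA was sequenced from NOMO-1, a line of human acute myeloid leukaemia cells of monocytic type, with 3 libraries from the parental line (WT) and 3 from the MSLN knockout (MSLN-KO). MSLN encodes mesothelin, a surface glycoprotein. The labels name no treatment or time, and do not say how MSLN was disrupted, whether the knockout is a clone or a pool, or whether replicates were grown apart. The spread on which every p-value rests may therefore be technical. Values are read counts scaled to library size (CPM) after TMM normalization, a scaling of library sizes, and the listed genes held 23665824 to 30804446 reads per library when the smallest step between values is taken as 1 read.

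Asparagine synthetase (ASNS) transfers the amide group of glutamine to aspartate. Leukaemic cells with little of it depend on asparagine from outside, which is why the enzyme asparaginase is used as a drug. Branched-chain, alanine and aspartate transaminases pass the amino group of leucine, alanine or aspartate to 2-oxoglutarate to give glutamate, or run the other way, and most exist in a cytosolic and a mitochondrial form. Glutamate dehydrogenase releases the amino group of glutamate as ammonia, and cystathionine beta-synthase (CBS) joins homocysteine to serine on the way to cysteine. In the amino acid response, uncharged tRNA activates the kinase GCN2 (gene EIF2AK4), translation of the transcription factor ATF4 goes up, and ATF4 binds C/EBP-ATF response elements, of which the one in the ASNS promoter is a textbook example.

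The promoters of the enzyme genes were searched for the core of that element, to show where its letters lie in these genes. RefSeq windows on GRCh38.p14, from 250 bases before to 50 bases after a transcription start, covered 7 of the 9 genes in 14 windows. GPT2 and BCAT2 had none. The letters TGATGNAA, read on both strands, occurred in windows of 3 genes: ASNS, BCAT1 and GOT1. The match lies at bases -68 to -61 from 1 of 2 ASNS starts (chr7:97872459-97872486 with its flanks), at -48 to -41 from 1 of 5 BCAT1 starts (chr12:24949132-24949159) and at -198 to -191 from the GOT1 start (chr10:99430805-99430832). All are printed on the minus strand of the genome, which is the coding strand of each gene, with the match in capitals and 10 bases on either side.
ASNS: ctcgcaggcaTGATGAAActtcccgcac
BCAT1: gtcttcctgcTGATGCAAtccgctaggt
GOT1: attgcattggTTGCATCAttctcggcag
The GOT1 match reads in the opposite direction to the other 2. The same letters occurred in 3.62% of all 35116 windows and in the windows of 2.54% of the 8985 listed genes that have one. A second motif, TGACGT, the core of a cyclic AMP response element, was found at another BCAT1 start and in the CTH and GOT2 windows, and in 7.98% of all windows and the windows of 14.7% of the listed genes that have one; it does not overlap the first motif in these genes. GLUD1 and the 3 CBS windows held neither. A match of letters does not show that a factor bound there.

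The targeted gene was lower in every knockout library. MSLN stood at 153.2, 122.9 and 105.9 CPM in WT replicates 1 to 3 and at 45.7, 46.9 and 45.3 CPM in MSLN-KO, a log2 change of -1.435 (SE 0.10). The WT libraries also differed from each other in MSLN and in several of the enzyme genes, as described further on, and values without single libraries are given where that matters.

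ASNS was far higher in MSLN-KO. Its level was 45.6, 35.7 and 18.7 CPM in WT replicates 1 to 3 and 199.0, 208.3 and 219.5 CPM in MSLN-KO replicates 1 to 3. The groups did not overlap, and the lowest MSLN-KO library was 4.36 times the highest WT library. The ratio of means was 6.27 (5.14 without WT replicate 3 and 7.69 without WT replicate 1), and the difference on the log2(CPM + 1) scale was 2.70 (SE 0.215, the standard error of the limma fit). ASNS (ENSG00000070669.17) lies on chromosome 7 (GRCh38, 97852118 to 97872542, minus strand).

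Of the branched-chain transaminases, which act on leucine, isoleucine and valine, the cytosolic BCAT1 was far higher in MSLN-KO. BCAT1 is low in most adult tissues and has been studied in myeloid leukaemia for its draw on 2-oxoglutarate. It stood at 20.8, 17.6 and 11.9 CPM in WT and at 77.1, 82.0 and 83.8 CPM in MSLN-KO. No MSLN-KO library came near the WT range, and the ratio of means was 4.83 (log2 change 2.24, SE 0.14). The mitochondrial form BCAT2 stood at 17.5, 14.6 and 16.1 CPM in WT and at 22.0, 22.9 and 16.1 CPM in MSLN-KO. Here MSLN-KO replicate 3 lay inside the WT range while the other 2 libraries lay above it. The log2 change of BCAT2 was 0.31 (SE 0.12), and 0.46 without that library.

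GPT2 encodes the mitochondrial alanine transaminase, which turns pyruvate and glutamate into alanine and 2-oxoglutarate. It stood at 14.6, 11.1 and 9.65 CPM in WT and at 53.0, 55.1 and 55.2 CPM in MSLN-KO. The highest MSLN-KO library was 1.04 times the lowest and all lay above WT, with a ratio of means of 4.62 (log2 change 2.13, SE 0.11). GPT, which encodes the cytosolic form, is not listed.

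The aspartate transaminases were close to level. GOT1, the cytosolic form, stood at 29.8, 26.6 and 30.3 CPM in WT and at 32.05, 32.66 and 33.05 CPM in MSLN-KO. The groups were separated by a narrow gap, 1.06 times between the nearest libraries, and the log2 change was 0.17 (SE 0.07). GOT2, the mitochondrial form, stood at 67.4, 69.0 and 72.0 CPM in WT and at 65.7, 64.0 and 61.7 CPM in MSLN-KO. It was the only enzyme gene of the 8 with a lower mean in MSLN-KO, by 0.12 on the log2 scale (SE 0.06), again without overlap of the libraries.

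GLUD1, the glutamate dehydrogenase of the mitochondrial matrix, stood at 243.6, 250.5 and 238.1 CPM in WT and at 283.6, 291.0 and 285.6 CPM in MSLN-KO. The step was small but wider than the spread in either group, with a ratio of means of 1.17 (log2 change 0.23, SE 0.05).

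CBS went from near silence to a low level. WT replicates 1 to 3 held 1, 3 and 6 reads (0.041, 0.116 and 0.253 CPM), and the MSLN-KO libraries held 264, 241 and 282 reads (10.25, 9.08 and 8.86 CPM). From summed reads scaled for depth the ratio was 69.3, with an exact 95% counting interval of 37.5 to 145.1 that covers counting error only. The ratio of mean CPM, 68.8, became 120.0 without WT replicate 3 and 51.0 without WT replicate 1, so its size rests on few reads. On the log2(CPM + 1) scale the change was 3.20 (SE 0.13). All genes of the table stood at 4.90 CPM or above in no fewer than 3 libraries, and CBS did so through MSLN-KO alone, so it could be listed only as higher in MSLN-KO. The other 7 enzyme genes were above that level in all libraries. GRCh38 carries a near-identical annotated copy, CBSL, on the same chromosome, which is not listed. Reads that match both copies could be dropped or split by the counting, so the absolute level of CBS is uncertain.

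**Figure D1:**
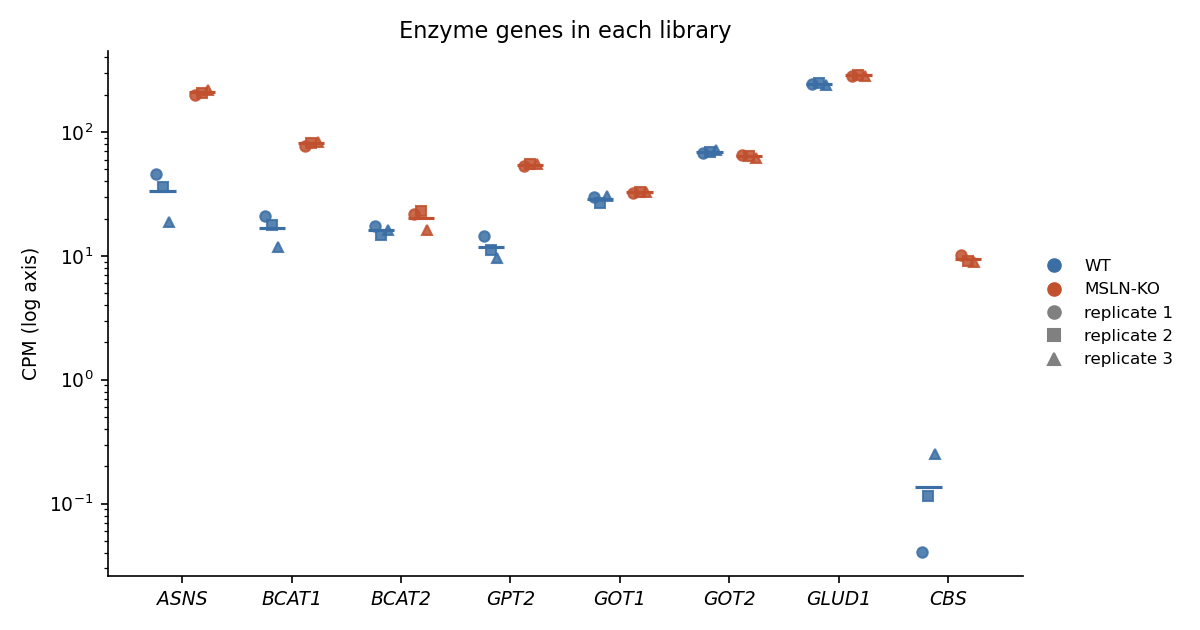
CPM on a log axis for 8 enzyme genes in 3 WT (blue) and 3 MSLN-KO (orange-red) libraries. Marker shapes give the replicate and lines the group means. ASNS, BCAT1, GPT2 and CBS are well separated between groups, while MSLN-KO replicate 3 of BCAT2 lies within its WT libraries.

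A gene was called when its adjusted p in the fit across all 11363 genes was under 0.05 (limma, Benjamini-Hochberg, two-sided). Of the 8 enzyme genes, 6 were called higher (CBS, ASNS, BCAT1, GPT2, BCAT2 and GLUD1), 0 were called lower, and GOT1 and GOT2 were not called. Across all listed genes 45.7% were called, 22.4% higher and 23.3% lower. All MSLN-KO libraries lay above all WT libraries for 6 of the 8 genes and below for 1 (GOT2), against 26.6% and 28.1% of all listed genes. Nothing is read from these counts, because the comparison itself chose the genes. By the size of the log2 change CBS ranked 44, ASNS 67, BCAT1 97 and GPT2 104 among 11363 genes, while BCAT2 ranked 3225, GLUD1 4468, GOT1 5865 and GOT2 7284. The place of CBS depends on the scale: with a pseudocount of 5 its log2 change was 1.49, below ASNS (2.55), BCAT1 (2.00) and GPT2 (1.83). The call of BCAT2 was lost under 7 of 14 alternative settings, and GOT1 was called only when columns were rescaled to the same total.

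**Figure D2:**
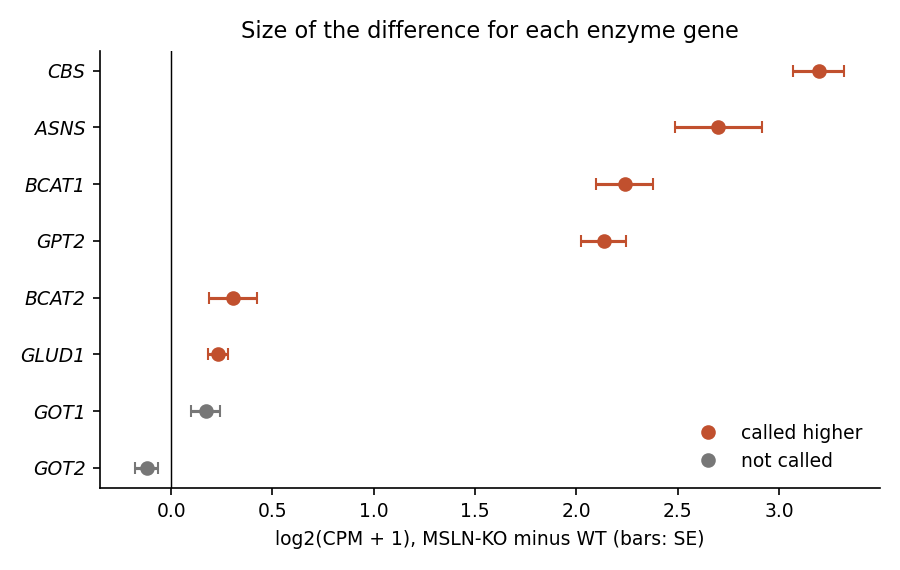
Difference in log2(CPM + 1), MSLN-KO minus WT, for each enzyme gene, with the standard error of the limma fit as bars. The genes fall into 4 with differences above 2 (CBS, ASNS, BCAT1 and GPT2) and 4 between -0.12 and 0.31.

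Divided by exon length, the levels of different genes can be set side by side. This uses all exons of a gene in GENCODE 29, whose BCAT1 model is long (11.8 kb), so levels of genes with unused exons come out low. In WT, GLUD1 was highest at 69.35 ± 1.76 CPM per kb (mean ± SD, n = 3, here and below), followed by GOT2 at 18.4 ± 0.625, GOT1 at 8.57 ± 0.596 and ASNS at 7.48 ± 3.06. The libraries of ASNS (4.19 to 10.2 CPM per kb) spanned those of GOT1, so their order is not settled. BCAT2 came next at 3.54 ± 0.320 CPM per kb, then GPT2 at 1.85 ± 0.397 and BCAT1 at 1.42 ± 0.384, whose libraries overlapped. CBS was lowest at 0.020 ± 0.016 CPM per kb. In MSLN-KO, ASNS stood second to GLUD1, at 46.9 ± 2.31 against 81.5 ± 1.09 CPM per kb, and above GOT2 at 16.9 ± 0.532. GOT1 (9.67 ± 0.150), GPT2 (8.57 ± 0.197), BCAT1 (6.88 ± 0.294), BCAT2 (4.47 ± 0.816) and CBS (1.39 ± 0.111 CPM per kb) followed, and no neighbours in this order overlapped between libraries.

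The cytosolic and mitochondrial forms of the same enzyme can also be compared within a library, where scaling cancels. The ratio of BCAT1 to BCAT2, per exon length, was 0.459, 0.465 and 0.285 in WT and 1.36, 1.38 and 2.01 in MSLN-KO. BCAT2 was thus the higher of the pair in every WT library and BCAT1 in every MSLN-KO library, on this length scale. The order in WT depends on that scale. In CPM, BCAT1 was above BCAT2 in WT replicate 1 (20.8 against 17.5) and replicate 2 (17.6 against 14.6). It was below BCAT2 in replicate 3 (11.9 against 16.1). The high value of MSLN-KO replicate 3 came with its low BCAT2 level. The ratio of GOT1 to GOT2 was 0.494, 0.431 and 0.470 in WT and 0.545, 0.570 and 0.598 in MSLN-KO. GOT2 remained the higher form in all 6 libraries, with a small shift towards GOT1 in MSLN-KO.

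**Figure D3:**
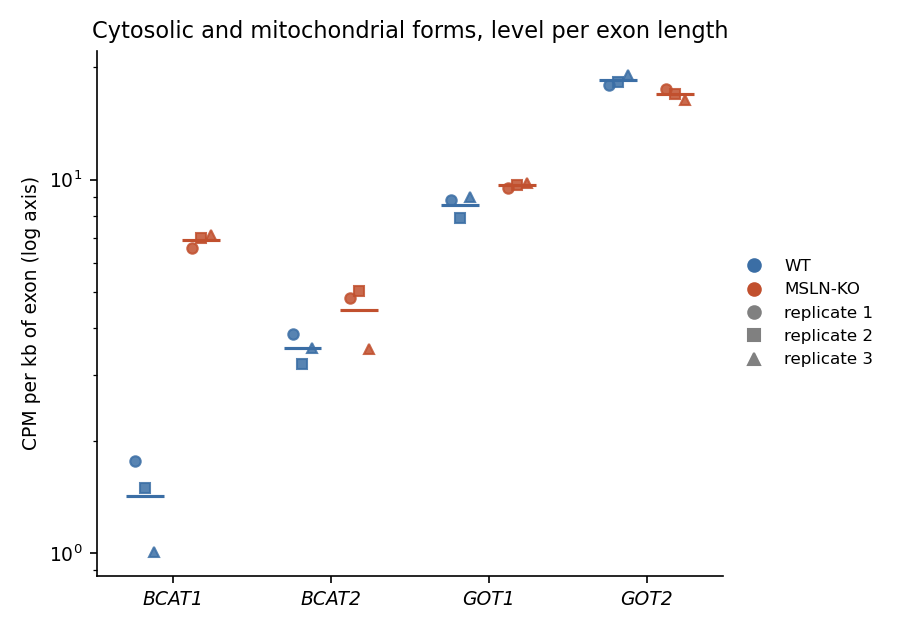
CPM per kb of exon on a log axis for the cytosolic (BCAT1, GOT1) and mitochondrial (BCAT2, GOT2) forms in each library, with lines at group means. On this scale BCAT1 lies below BCAT2 in WT and above it in MSLN-KO, and GOT1 lies below GOT2 in both groups. The order of BCAT1 and BCAT2 in WT depends on the division by exon length.

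The WT libraries differed among themselves in several of the enzyme genes, which is again given as a description. For ASNS, BCAT1 and GPT2 the same WT library was highest (replicate 1) and the same lowest (replicate 3). Among the 9629 genes with a WT mean of at least 10 CPM, ASNS had the largest ratio of WT replicate 1 to WT replicate 3, at 2.44. BCAT1 was the third, at 1.75, and GPT2 ranked 11, at 1.51. These 3 genes were highest and lowest in the 2 libraries of this ratio, so their high ranks are partly built in. ASNS was also known beforehand to vary among the WT libraries. The serine synthesis genes PHGDH (1.99) and PSAT1 (1.60) ranked 2 and 7. The others among the 11, named after their values were seen, were NAPSB, 7SK, GZMA, HLA-DOA, AEBP1 and C3. MSLN also had this order in WT, with a ratio of 1.45 that only 15 of the 9629 genes reached, itself included. Within WT the library with most MSLN transcript therefore had most ASNS, while between the groups MSLN was lower and ASNS higher in MSLN-KO. The order 1, 2, 3 occurred in 12.3% of all listed genes.

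The remaining enzyme genes did not share this spread. The ratio of WT replicate 1 to WT replicate 3 was 1.09 for BCAT2, 0.983 for GOT1, 0.936 for GOT2 and 1.02 for GLUD1, and CBS went the opposite way on its few reads. The coefficient of variation in WT was 40.9% for ASNS, 27.0% for BCAT1 and 21.4% for GPT2, against a median of 5.70% over the 9629 genes. This measure favours no pair of libraries. Coefficients at least as large were seen in 4, 19 and 51 genes, each gene itself included, and in 88 for MSLN (18.8%). In MSLN-KO the coefficient of ASNS, BCAT1 and GPT2 was 4.93%, 4.28% and 2.30%, against a median of 5.16%. Among the 7 enzyme genes above 10 CPM, only BCAT2 varied more in MSLN-KO (18.3%) than in WT (9.06%). What set the WT libraries apart was not tested.

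**Figure D4:**
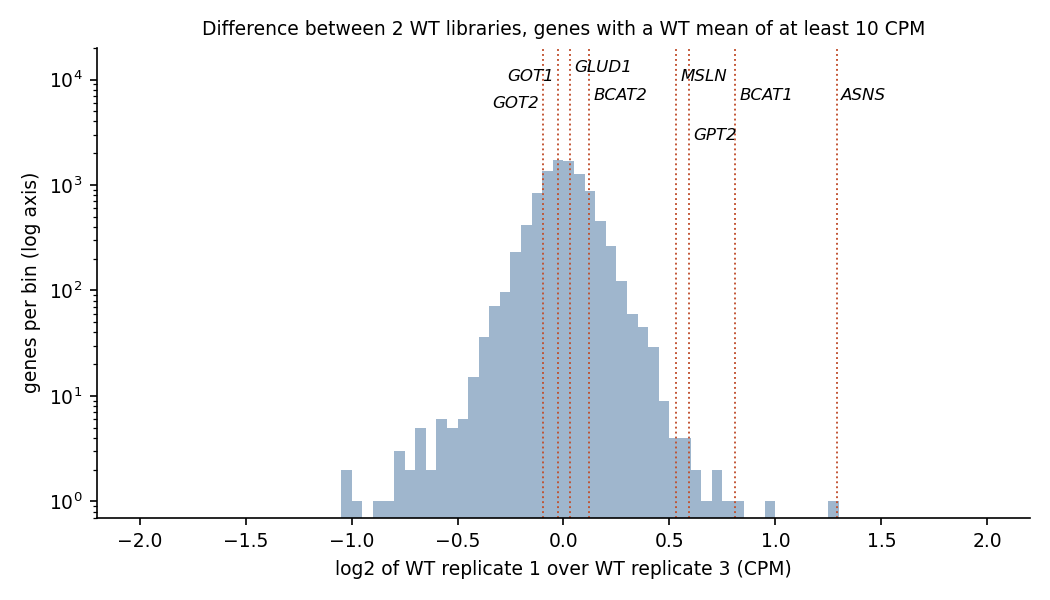
Histogram of the log2 ratio of WT replicate 1 to WT replicate 3 over 9629 genes with a WT mean of at least 10 CPM, with a log axis for genes per bin. Dotted lines mark 7 enzyme genes and MSLN: ASNS, BCAT1 and GPT2 lie in the right tail (ratios of 2.44, 1.75 and 1.51) and BCAT2, GLUD1, GOT1 and GOT2 in the bulk.

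The genes most like ASNS were found by Pearson's r of log2(CPM + 1). Over the 6 libraries, which share the contrast between groups, the closest were SMPD3 (0.9982), BSG-AS1 (0.9976), PHGDH (0.9975), BCAT1 (0.9975) and BMF (0.9972), and 704 genes (6.20%) reached 0.95. After subtraction of the group means, which leaves mostly the WT spread, the closest were HLA-DOA (0.9985), BCAT1 (0.9977), CAMK1D (0.996), ATP6V1G2 (0.9957) and PSAT1 (0.9954), and 71 genes (0.625%) reached 0.95. BCAT1 was the only gene in both sets of 5. BSG-AS1, which stood above 4.90 CPM only in MSLN-KO, is antisense to BSG, and with the strand setting of the counting not given, reads of the pair cannot be told apart. HLA-DOA tracked ASNS within WT (65.9, 57.6 and 42.5 CPM) but was not called between groups, with 57.1, 59.5 and 60.1 CPM in MSLN-KO.

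The genes around each enzyme gene were looked at for a change shared by a chromosome region. Within 1 Mb of the gene start, the listed neighbours of ASNS (10), BCAT1 (4), GPT2 (8) and CBS (13) had median log2 changes of 0.02, -0.10, -0.10 and -0.02. Of the 10 genes around ASNS, 2 were called higher and 3 lower, and around CBS 2 and 2 of 13. The nearest to ASNS, ENSG00000284707 at 100.4 kb (named after its value was seen), rose from 1.48 to 6.38 CPM, a log2 change of 1.60. It reached 4.90 CPM only in MSLN-KO, so its direction was set by which genes are listed. The largest neighbour median was 0.26, around GOT2 (12 genes, 6 higher and 1 lower), although GOT2 itself was slightly lower in MSLN-KO. The 37 neighbours of BCAT2 had a median of 0.22, with 15 called higher and 3 lower. The shares of all listed genes were 22.4% called higher and 23.3% lower. None of the enzyme genes lies on chromosome 15, where 83.0% of 371 listed genes were called lower.

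Around the enzymes, 9 lists of pathway genes that exclude them were counted in the same fit (limma, Benjamini-Hochberg). The lists were drawn up with earlier results on these libraries known and are no independent evidence of a direction. The median log2 change of all listed genes was 0.01, with 22.4% called higher and 23.3% called lower. In the amino acid response around ATF4, 12 of 16 listed genes rose and 2 fell (median 0.96). ATF5, an ATF4-related factor, rose from 5.25 ± 0.983 to 40.1 ± 6.68 CPM, and STC2, a secreted glycoprotein, from 0.576 ± 0.142 to 6.47 ± 0.251 CPM. STC2 reached 4.90 CPM only in MSLN-KO, so its direction was set by which genes are listed. The same holds for ASS1 and CHAC1 in the lists described further on. ATF5 reached that level in WT replicate 1 only among the WT libraries (6.37, 4.88 and 4.51 CPM), so its listing also rested on MSLN-KO. ATF4 itself, named after its value was seen, rose 2.43-fold, from 177.4 ± 22.6 to 431.1 ± 2.04 CPM. The 2 that fell are kinases: EIF2AK4, the sensor of uncharged tRNA, by 0.43 on the log2 scale, and EIF2AK1, the haem-regulated kinase, by 0.25. The related EIF2AK2 and EIF2AK3, named after their values were seen, were not called (log2 changes of -0.03 and 0.07). EIF2AK4 lies on chromosome 15.

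Enzymes that make or use asparagine, glutamine and its amide nitrogen rose in 9 of 18 cases and fell in 3 (median 0.13). The shares of all listed genes were 22.4% and 23.3%. NIT1, an amidase, rose 1.44-fold and NARS1, the cytosolic asparaginyl-tRNA synthetase, rose from 195.9 ± 3.17 to 273.7 ± 10.1 CPM. GATB, part of the mitochondrial amidotransferase that makes glutaminyl-tRNA, fell by 0.34 on the log2 scale and CTPS2, a CTP synthase, fell by 0.33. Named after their values were seen, GLUL, the glutamine synthetase, rose 1.29-fold, and ASRGL1, an asparaginase, fell by 0.31 on the log2 scale. These changes were small beside that of ASNS.

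Other transaminases moved singly. Of 5 listed, 1 rose, 1 fell and 3 were not called (median 0.10), against 22.4% higher and 23.3% lower among all listed genes. PSAT1, which makes phosphoserine with the amino group of glutamate, rose from 26.5 ± 6.07 to 119.4 ± 5.83 CPM. OAT, the ornithine aminotransferase, fell from 83.5 ± 4.83 to 49.6 ± 2.62 CPM.

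The steps that follow the branched-chain transaminases showed no common direction. Of 22 listed genes of branched-chain amino acid breakdown, 5 rose and 4 fell (median -0.01), against 22.4% and 23.3% of all listed genes. PPM1K, the phosphatase that activates the branched-chain keto acid dehydrogenase, rose 1.34-fold and ACADSB, an acyl-CoA dehydrogenase, 1.33-fold. MCCC1, of leucine breakdown, fell from 74.3 ± 2.82 to 51.5 ± 0.667 CPM and HSD17B10, of isoleucine breakdown, by 0.44 on the log2 scale. When WT replicate 3 was left out 3 genes were called higher, and 2 when MSLN-KO replicate 1 was left out. The subunits of the dehydrogenase that takes the keto acids made by BCAT1 and BCAT2, again named after their values were seen, stood at log2 changes of 0.05 (BCKDHA), -0.10 (BCKDHB), 0.24 (DBT, called) and 0.05 (DLD).

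Partners of the aspartate transaminases in the malate-aspartate shuttle, which carries reducing power into mitochondria, were lower or not called. Of 5, 3 fell and 0 rose (median -0.34), against 23.3% lower and 22.4% higher among all listed genes. MDH1, the cytosolic malate dehydrogenase, fell from 235.3 ± 7.11 to 172.1 ± 4.09 CPM and SLC25A13, an aspartate-glutamate carrier, from 72.7 ± 3.68 to 55.4 ± 2.77 CPM. MDH2, the mitochondrial malate dehydrogenase and the third of these (named after its value was seen), fell by 0.34 on the log2 scale. Enzymes of 2-oxoglutarate, the partner substrate of every transaminase here, fell in 4 of 9 cases and rose in 0 (median -0.135). IDH3A fell by 0.61 and IDH2 by 0.53 on the log2 scale, both on chromosome 15, and OGDH and IDH3B, the other called genes, named after their values were seen, lie elsewhere.

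Among users of aspartate, 4 of 9 rose (median -0.03). ASS1, which joins aspartate to citrulline in arginine synthesis, rose from 3.11 ± 1.58 to 104.9 ± 9.04 CPM, and ADSS1, an adenylosuccinate synthase, rose 1.29-fold (not called without MSLN-KO replicate 1). In this list 1 gene was called higher without MSLN-KO replicate 1 and 2 without MSLN-KO replicate 2.

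Of the lists on either side of CBS, the methionine cycle had calls in 1 direction and cysteine, sulfide and glutathione in both. Among all listed genes 22.4% were called higher and 23.3% lower, and nothing is read from counts in lists this short. In the list for the methionine cycle, which supplies homocysteine, 3 of 7 rose and 0 fell (median 0.11). With any 1 library left out, 2 were called higher. Those that rose include AHCYL1, an AHCY-like gene (1.32-fold), and MAT2A, the S-adenosylmethionine synthetase (1.18-fold). AHCY itself, named after its value was seen, was not called (log2 change 0.04). The MAT2A call was lost without WT replicate 2 or without MSLN-KO replicate 3. Among 12 genes of cysteine, sulfide and glutathione, 5 rose and 3 fell (median 0.08), with 3 called higher without MSLN-KO replicate 2. CHAC1, which cleaves glutathione, rose 4.68-fold and SLC3A2, the heavy chain of the cystine carrier, from 64.4 ± 6.43 to 158.5 ± 4.02 CPM. SQOR and TST, both of sulfide oxidation, fell by 0.92 and 0.64 on the log2 scale. CHAC1 and SQOR lie on chromosome 15.

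**Figure D5:**
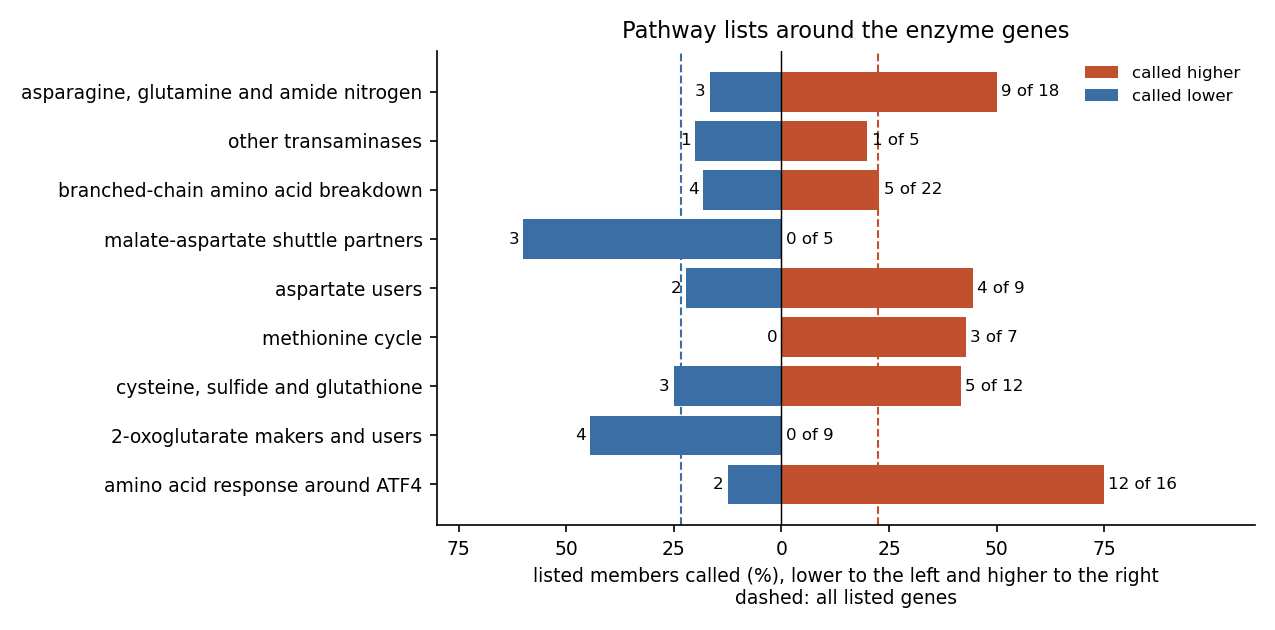
Percent of the listed members of 9 pathway lists that were called higher (orange-red, right) or lower (blue, left) in MSLN-KO, with the numbers of genes and dashed lines at 22.4% and 23.3%, the shares of all listed genes. The list around ATF4 has the longest bar to the right (12 of 16) and the malate-aspartate shuttle partners the longest to the left (3 of 5).

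Markers of cell identity moved with the groups too. All 12 markers of monocytic leukaemia were listed, with a summed level of 16700 to 17350 CPM in WT and 7457 to 7871 CPM in MSLN-KO, most of it LYZ. Of these 12 markers, 4 were called higher and 7 lower, against 22.4% and 23.3% of all listed genes. Of the markers chosen for other cell types only NKG7, CD79B, ITGA2B, KRT18 and PECAM1 were listed. These were 1 of 8, 5, 7, 8 and 6 for T and NK, B, erythroid and megakaryocytic, epithelial and mesothelial, and stromal and endothelial cells. A single listed marker does not show that such cells were present. The level of 4.90 CPM that listed genes had to show in 3 libraries was met by CD79B only in WT and by ITGA2B only in MSLN-KO, so the direction of both was set by the listing. CD79B fell by 1.64 on the log2 scale, with at most 15.3 CPM in a WT library and 3.65 to 4.31 CPM in the knockout. ITGA2B rose from 1.39 to 2.04 CPM in WT to between 6.72 and 7.42 CPM. NKG7 (37.15 to 40.9 and 29.3 to 34.8 CPM), KRT18 (7.97 to 9.71 and 7.07 to 9.05 CPM) and PECAM1 (496.5 to 533.3 and 379.1 to 387.2 CPM) differed less in proportion. Their part in the enzyme results was not tested, and in bulk RNA a change in the mix of cells and a change in RNA per cell cannot be told apart.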

How the data were processed

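RNA was sequenced from 3 WT and 3 MSLN-KO libraries of NOMO-1, from total RNA with ribosomal RNA removed, per the labels' protocols. The submitters' processing notes name STAR, featureCounts, edgeR and GRCh38. The sources used here do not give versions, the annotation release or the strand setting. The authors deposited CPM after TMM normalization, as the table's name and column totals show, with 1 column per library. The lowest level that all listed genes reached in 3 or more libraries was 4.90 CPM, so genes low in both groups were not analysed here. All values were whole multiples of 1 step per column (within 0.01), which gave reads per library.

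The 8 genes were found by symbol (11354 of 11363 identifiers matched). Coordinates and exon lengths came from GENCODE 29. The test was limma 3.58.1 in R 4.3.3 (lmFit, eBayes with trend) on log2(CPM + 1) over all 6 libraries, with Benjamini-Hochberg adjustment over all genes and a minimum mean of 0.5 CPM, which removed none. Fold changes are ratios of mean CPM. The limma fit was also run on simulated libraries with known changes, and no result here rests on that. Genes, lists and rules were chosen with earlier results of these data known. From each list the 2 largest called changes in each direction were named, and other names are marked. Some genes that the rule names are left out of the text.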

Additional observations from a re-analysis of the deposited data

How the results depend on the processing

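Over 14 alternative settings (pseudocounts of 0.5 and 5, a minimum mean of 5 CPM, no filter, 2 other scalings, no variance trend, a replicate block and each library left out), the count of genes called ran from 4092 to 5220 against 5197. It ran from 4092 to 5114 without single libraries, with 1947 to 2486 called higher and 2139 to 2628 lower. Between 5 and 7 enzyme genes were called higher, 5 to 6 of them without single libraries, and 0 lower under every setting. With a minimum mean of 5 CPM, CBS and STC2 were not tested. The log2 change of CBS was 1.49 with a pseudocount of 5 and 3.97 with 0.5, so this value depends on the scale. Of 37 genes that the rule names, none changed direction in 516 values; 18 values lost a call and 1 gained one. The ratio of BCAT1 to BCAT2 ran from 0.372 to 0.462 in WT and from 1.37 to 1.70 in MSLN-KO without single libraries, and that of GOT1 to GOT2 from 0.451 to 0.482 and from 0.558 to 0.584.

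With the replicate number as a block, 4946 genes were called, 2413 higher, and 6 enzyme genes higher. Deviations of same-numbered libraries correlated at 0.19, -0.17 and -0.09, which shows no sign that the numbers pair the samples. With 3 libraries per group these values depend on each other, so they cannot decide whether the samples were paired. The planned edgeR test on recovered reads was not run: the table holds few low values from which to check that whole reads were recovered, so reads serve here only to describe depth and the counting error of CBS. Depth limits CBS in WT, with 10 reads over 3 libraries.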
